A study of Homo sapiens with 29 samples.

Results

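SOX, T-box and GATA factors are 3 families of transcription factors that set cell identity during development. The 38 genes described here are 18 SOX genes, 15 T-box genes and 5 GATA genes, taken from a fixed list of names out of 19785 protein-coding genes. The list was chosen with earlier results of these data known. It does not hold every family member, and SOX3 is counted among partner genes below. Occupancy of these genes was read from ChIP-seq peak lists of the INO80 chromatin remodelling complex in HepG2 and Huh7, a pair of human liver cancer cell lines. INO80 is the catalytic ATPase of the complex, MCRS1 is one of its subunits, RUVBL1 and RUVBL2 are a pair of related ATPases found in several remodelling and acetylation complexes. YY1 is a DNA-binding factor that works with INO80 and also apart from it. INO80 was mapped in HepG2 from 3 libraries and in Huh7 from 2, MCRS1 and RUVBL2 from 2 libraries in each line, RUVBL1 from 2 libraries in HepG2 alone, and YY1 from 2 libraries in Huh7. The YY1 peaks of HepG2 come from ENCODE reads that the submitters processed alongside their own. Cells of both lines were of low passage and fixed in dilute formaldehyde, with no treatment given in the labels for these libraries. Libraries of H3K27ac from HepG2 cells given an EZH2 inhibitor or DMSO, and the input libraries, were not used here.

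SOX proteins bind DNA in the minor groove through an HMG box and bend it, and they usually act with partner factors such as POU proteins. T-box proteins share a large DNA-binding domain and pattern the mesoderm, the heart, the limbs and several lymphocyte and neuron lineages. GATA proteins bind through zinc fingers, with GATA2 and GATA3 best known in blood cells and GATA4, GATA5 and GATA6 in the heart and in endoderm, the layer that gives rise to liver. Of the 38 genes, GATA4, GATA6 and SOX9 have known roles in liver or bile duct development, whereas most of the others are known from tissues other than liver.

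Genes counted as bound had at least 1 base of a peak within 1 kb of an annotated start of a coding transcript. The calls nearest that limit on the inner side were MCRS1 at SOX8 in HepG2, 983 bp from the start, and INO80 at SOX13 in Huh7, at 940 bp. On the outer side YY1 at TBX4 in HepG2 lay at 1053 bp and RUVBL1 at SOX18 at 1109 bp. Width is the number of bases in the widest such peak, since the lists hold positions and no peak height. Each factor has 1 deposited list per line, so no replicate error exists and no difference below was tested. Counts of the 38 genes are set beside the share of all coding genes called by the same rule. A gene described as free of a factor, or of any peak, had none within 1 kb of a coding start. The lists hold 23665 INO80 peaks in HepG2 and 15303 in Huh7, 39293 YY1 peaks in HepG2 and 21554 in Huh7, and 3322 to 23425 peaks of the remaining factors. The narrowest peak in each list was 147 bp. More occupancy and deeper sequencing cannot be told apart as reasons for a longer list. Of 13 hepatocyte marker genes, 11 had an INO80 peak in HepG2, or 84.6%, against 63.7% of all coding genes. In Huh7, 5 of the 13 had one, or 38.5%, below the 47.7% of all coding genes. The widest of these covered ALB, the serum albumin gene, over 15541 bp in HepG2, and ALB had no INO80 peak within 1 kb of a start in Huh7. INO80 also lay at 2 of 4 neuron markers in HepG2 and 4 of 4 in Huh7, at 2 of 4 fibroblast markers in HepG2 and 1 in Huh7, and at 1 of 4 blood markers in each line. A peak at a marker gene is not a measure of its expression, so these counts do not test the identity of either line.

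The bases just upstream of SOX12 and SOX1 show that sequence rich in CG lay both at the most occupied gene and at a gene with no peak, on hg19 and 5′ to 3′ on the strand of the gene. Capitals mark each CG dinucleotide, the target of DNA methylation and the hallmark of CpG islands. SOX12 had a peak in all 9 lists, and SOX1 had none in any list. Of the SOX12 peaks, RUVBL1 in HepG2 was 154 bp wide, and MCRS1 and RUVBL2 in Huh7 lay 742 and 916 bp from the start. The windows are chr20:305946-306195 (plus strand) for SOX12 and chr13:112721213-112721462 (plus strand) for SOX1.
SOX12: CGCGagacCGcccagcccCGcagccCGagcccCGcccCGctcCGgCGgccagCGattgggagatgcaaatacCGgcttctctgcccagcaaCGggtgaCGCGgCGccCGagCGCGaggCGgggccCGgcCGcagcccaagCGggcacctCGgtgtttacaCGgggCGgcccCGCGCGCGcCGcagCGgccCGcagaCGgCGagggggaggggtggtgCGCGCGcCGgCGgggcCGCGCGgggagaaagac
SOX1: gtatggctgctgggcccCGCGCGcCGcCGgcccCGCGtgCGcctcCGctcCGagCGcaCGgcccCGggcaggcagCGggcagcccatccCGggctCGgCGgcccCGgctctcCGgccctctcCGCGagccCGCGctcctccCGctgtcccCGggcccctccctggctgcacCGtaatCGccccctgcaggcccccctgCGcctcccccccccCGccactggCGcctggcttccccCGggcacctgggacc
These windows of 250 bp hold 42 CG dinucleotides at SOX12 and 31 at SOX1. SOX1 is not typical of the 12 listed genes with no peak, as 31 was the highest count among them, shared with TBX20. The lowest was 2, at SOX6 and TBX19.

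A further pair of sequences bears on YY1, whose core motif is CCATNTT on the forward strand and AANATGG on the reverse. None of the 28 INO80 peaks at the listed genes in HepG2 held it in the central 200 bp, against 8.76% of all INO80 peaks within 1 kb of a coding start. In Huh7, 2 of 30 such peaks held it, or 6.67% against 11.6%. Both lay at genes with no YY1 peak in Huh7, and their windows are chr20:62681456-62681655 (minus strand) for SOX18 and chr22:19743814-19744013 (plus strand) for TBX1. Capitals mark the motif.
SOX18: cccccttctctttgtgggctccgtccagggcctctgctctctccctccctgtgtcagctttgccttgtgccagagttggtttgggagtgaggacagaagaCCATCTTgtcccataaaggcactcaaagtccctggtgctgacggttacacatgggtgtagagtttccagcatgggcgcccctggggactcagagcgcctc
TBX1: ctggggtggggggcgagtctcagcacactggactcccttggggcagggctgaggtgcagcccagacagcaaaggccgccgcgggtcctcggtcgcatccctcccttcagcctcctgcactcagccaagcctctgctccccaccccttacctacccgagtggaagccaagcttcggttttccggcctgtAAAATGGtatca
Among YY1 peaks at the listed genes the motif stood in the central 200 bp of 0 of 17 in HepG2 and of 1 of 15 in Huh7, at SOX9. All YY1 peaks near coding starts held it in 10.8% of cases in HepG2 and 12.2% in Huh7. In the 250 bp upstream of the annotated start it occurred at 3 of 38 genes, which is 7.89% against 9.32% of all coding genes. None of those 3 genes had a YY1 peak within 1 kb of a start in either line. Each of these motif counts at the listed genes is at most 3, and no difference in the shares can be read from so few. By median the INO80 peaks at these genes were also wider than at bound genes at large, so the central 200 bp was a smaller part of them.

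INO80 was found at 23 of the 38 genes in HepG2, or 60.5%, against 63.7% of all coding genes. In Huh7 it was found at 21 genes, or 55.3%, against 47.7%. Both shares were near the background, as was the share bound in at least 1 line, 24 genes or 63.2% against 66.1%. With each list cut to its 3322 widest peaks, INO80 lay at 44.7% against 15.6% in HepG2 and 31.6% against 15.3% in Huh7. Of the 5 GATA genes, 4 were bound in HepG2 and 5 in Huh7. T-box genes were bound at 8 of 15 in HepG2 and at the same 8 in Huh7, and SOX genes at 11 of 18 in HepG2 and 8 of 18 in Huh7. The other factors had peaks at a smaller share of these genes than of coding genes at large. YY1 lay at 14 genes in HepG2, 36.8% against 62.6%, and at 13 in Huh7, 34.2% against 51.5%. MCRS1 lay at 16 genes in HepG2, 42.1% against 58.1% (18.4% against 15.3% when each list was cut to its 3322 widest peaks), and at 5 in Huh7, 13.2% against 21.8%. RUVBL2 lay at 10 genes in HepG2, 26.3% against 39.1%, and at 3 in Huh7, 7.89% against 12.7%. RUVBL1, mapped in HepG2 alone, lay at 3 genes, 7.89% against 16.8%.

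**Figure D1:**
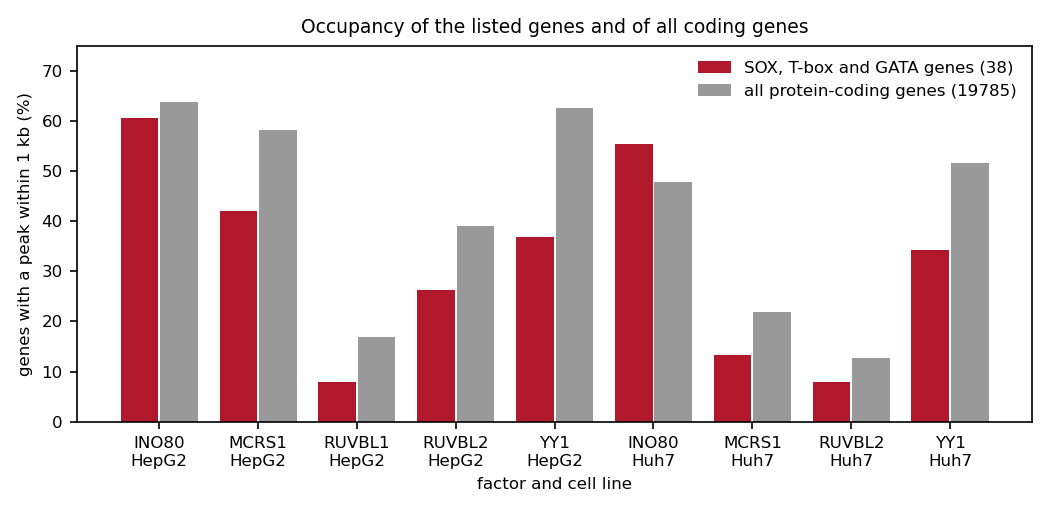
Percentage of the 38 SOX, T-box and GATA genes (red, left bar of each pair) and of all 19785 protein-coding genes (grey, right bar) with a peak within 1 kb of a coding start, for each factor and cell line. The bars of a pair stand close for INO80, at 60.5% and 63.7% in HepG2, and far apart for YY1, at 36.8% and 62.6% in HepG2.

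INO80 without YY1 was frequent at these genes. In HepG2, 9 of 23 INO80-bound genes had no YY1 peak within 1 kb, or 39.1% against 11% of all INO80-bound coding genes. In Huh7, 9 of 21 had none, or 42.9% against 15.3%. Each partner was less frequent beside INO80 than at bound genes at large. In HepG2, 14 of the 23 had YY1, or 60.9% against 89%, 15 had MCRS1, or 65.2% against 86.3%, 10 had RUVBL2, or 43.5% against 60.7%, and 3 had RUVBL1, or 13% against 26.2%. In Huh7, 12 of the 21 had YY1, or 57.1% against 84.7%, 5 had MCRS1, or 23.8% against 43%, and 3 had RUVBL2, or 14.3% against 25%. No YY1 peak lay within 1 kb of a start in either line at 5 of the 20 genes that carried INO80 in both, or 25% against 5.67%, and these were SOX8, SOX21, TBR1, TBX18 and GATA5. At TBR1 a YY1 peak lay farther out, 1338 bp from the start in HepG2 and 1837 bp in Huh7. YY1 lay beside INO80 in both lines at 11 of the 20, or 55% against 83.5%.

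INO80 with none of the other mapped factors within 1 kb of a start was also frequent. That state was seen at 7 of 23 genes in HepG2, or 30.4% against 9.52%, namely SOX2, SOX7, SOX14, SOX21, TBR1, TBX18 and GATA5. In Huh7 it was seen at 8 of 21, or 38.1% against 13.8%, namely SOX8, SOX18, SOX21, TBX1, TBX18, TBX21, TBR1 and GATA5. Every factor mapped in the line was present at SOX9, SOX12 and TBX6 in HepG2, 13% of INO80-bound members against 22.6%. In Huh7 the full set lay at SOX12, MGA and GATA6, 14.3% against 19%. A partner was found without INO80 at 2 genes. TBX4, a hindlimb and lung regulator, had an MCRS1 peak of 1145 bp in HepG2, and TBX10 had a YY1 peak of 265 bp in Huh7.

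**Figure D2:**
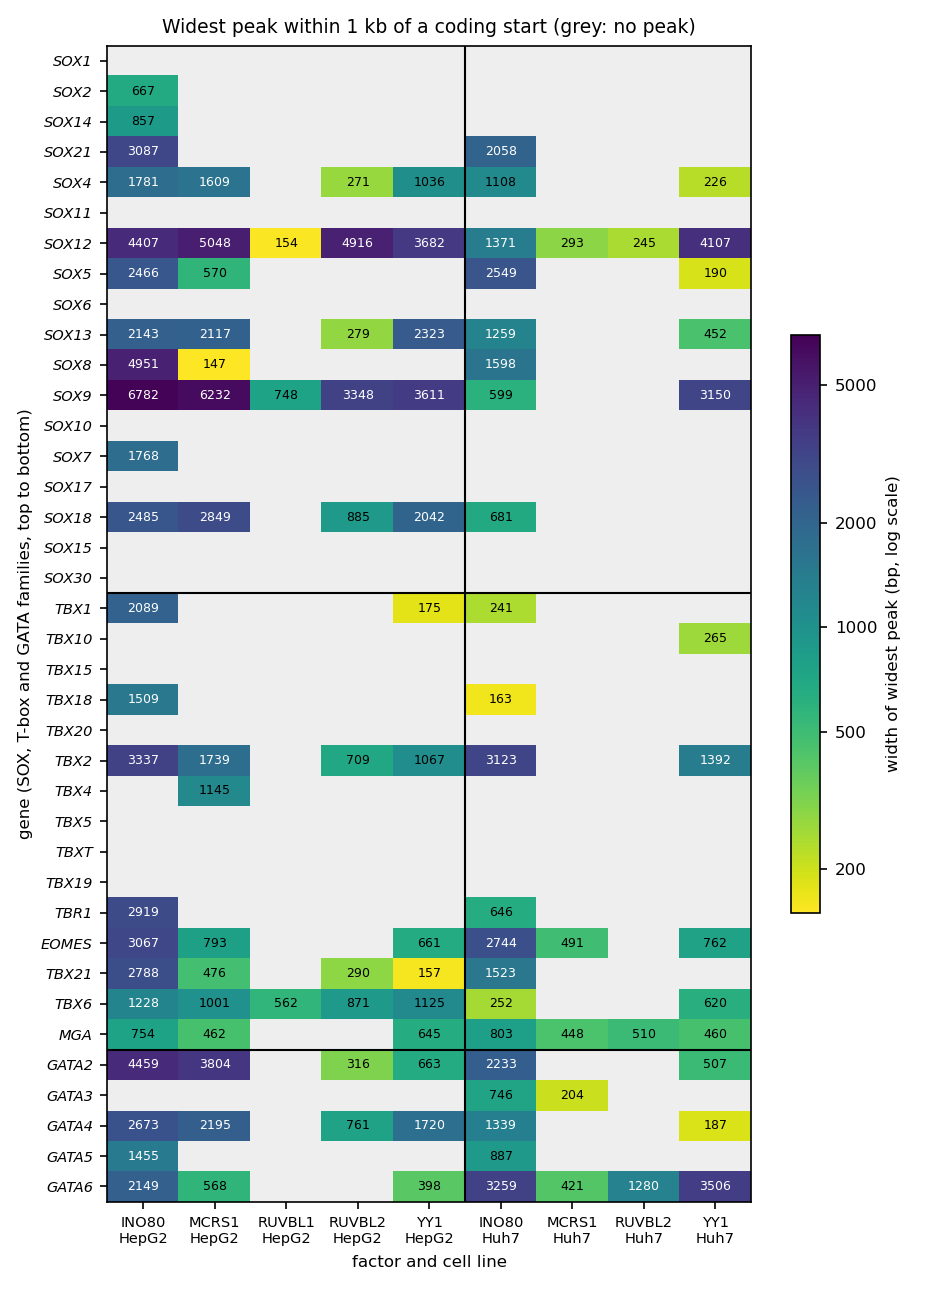
Width in bp of the widest peak within 1 kb of a coding start, for each of the 38 genes (rows, by family) in each of the 9 lists (columns, HepG2 left of the vertical line and Huh7 right of it), on a logarithmic colour scale with grey for no peak. SOX12 is filled in all 9 columns, and SOX21 and GATA5 are filled for INO80 alone in both lines.

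Where INO80 was present its peaks were wide, least so at T-box genes in Huh7. The median of the widest INO80 peak was 2466 bp over the 23 bound members in HepG2, with a range of 667 to 6782 bp, against 1118.5 bp over all 12606 bound coding genes. In Huh7 it was 1259 bp over 21 members, with a range of 163 to 3259 bp, against 635 bp over 9436 genes. With the peak centre required within 1 kb the Huh7 medians were 774.5 bp at 18 members and 606 bp at all bound genes. By family the HepG2 medians were 2466 bp at SOX, 2438.5 bp at T-box and 2411 bp at GATA genes. The Huh7 medians were 1315 bp at SOX and 1339 bp at GATA genes, but 724.5 bp at T-box genes, of which 5 of 8 exceeded 635 bp. In HepG2, 20 of the 23 were wider than the median bound gene and 10 were at or above 2575 bp, the 90th percentile of bound genes. In Huh7, 17 of 21 were wider than the median and 6 were at or above 1718 bp, the same percentile there. The whole 2001 bp around the main start was under INO80 at 7 of 23 bound members in HepG2, or 30.4% against 6.35% of bound genes, namely SOX8, SOX9, SOX12, SOX21, TBX2, EOMES and GATA4. In Huh7 this held at 1 of 21, EOMES, or 4.76% against 1.78%. Among the other factors, only YY1 in Huh7 had a lower median at members than at all bound genes, 507 and 658 bp. MCRS1 in HepG2 had a median of 1377 bp at members and 1148 bp at all bound genes, and YY1 in HepG2 1051.5 and 909 bp. RUVBL2 in HepG2 had 735 and 518 bp, with 10 members bound. With 3 to 5 members bound, the medians were 562 and 315 bp for RUVBL1, 510 and 277 bp for RUVBL2 in Huh7, and 421 and 310 bp for MCRS1 in Huh7.

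Width was also split by YY1. At members without YY1 in HepG2, the median INO80 peak was 1768 bp, against 1098.5 bp at all bound genes without YY1, and 6 of the 9 exceeded 1500 bp, 66.7% against 35.2%. At members with YY1 in HepG2 it was 2579 bp against 1121 bp, and 12 of 14 exceeded 1500 bp, 85.7% against 32.6%. In Huh7 the median was 746 bp against 449 bp without YY1 and 1355 bp against 670 bp with it. Members were therefore wider than bound genes at large in both YY1 states and both lines, while their own widths with and without YY1 overlapped.

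**Figure D3:**
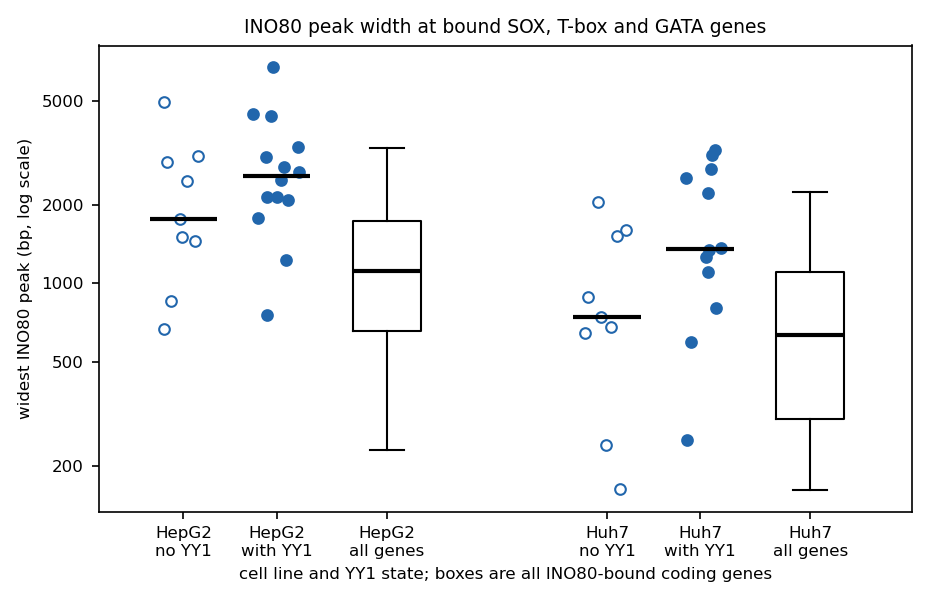
Width of the widest INO80 peak (bp, logarithmic axis) at each bound SOX, T-box or GATA gene, split by the absence (open points) or presence (filled points) of a YY1 peak in the same line, with black bars at the medians. The boxes give all INO80-bound coding genes with quartiles and whiskers at percentiles 5 and 95, and the member medians of 1768 and 2579 bp in HepG2 lie above that box's median of 1118.5 bp.

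Among SOX genes of group B, which act in pluripotent and neural cells, INO80 had no other mapped factor within 1 kb of the start wherever it occurred. SOX21, a repressor that promotes neuron formation, had an INO80 peak of 3087 bp in HepG2 (chr13:95363182-95366268) and of 2058 bp in Huh7 (chr13:95364042-95366099). Both spanned the start site and reached the antisense noncoding gene SOX21-AS1. SOX2, a pluripotency and neural stem cell factor, had a peak of 667 bp in HepG2 that began 746 bp downstream of its start, and none in Huh7. SOX14, known from interneurons, had 857 bp in HepG2 across its start and none in Huh7. SOX1, a marker of neural precursors, had no peak within 1 kb in any list, and its nearest INO80 peak in HepG2 lay 3998 bp away.

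Group C, active in neural and other progenitors, held the most and the least occupied genes. SOX12 had an INO80 peak of 4407 bp in HepG2 (chr20:304734-309140), with MCRS1 over 5048 bp, RUVBL2 over 4916 bp, YY1 over 3682 bp and RUVBL1 over 154 bp. In Huh7 its YY1 peak spanned 4107 bp across the start, but INO80 was split into peaks of 1371 and 616 bp on either side, with MCRS1 over 293 bp and RUVBL2 over 245 bp. The upstream Huh7 peaks of the 4 factors overlapped one another. A start of another gene, NRSN2-AS1, lay within 1 kb of each of these SOX12 peaks. SOX4 had INO80 over 1781 bp in HepG2 and 1108 bp in Huh7, with YY1 over 1036 bp in HepG2 and 226 bp in Huh7. SOX11 had no peak within 1 kb, the nearest INO80 peak in HepG2 being 4225 bp away.

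Group D proteins lack an activation domain of their own, and SOX5 and SOX6 serve cartilage formation. SOX5 was bound at a pair of places. The distal start carried INO80 over 2466 bp in HepG2 (chr12:24714748-24717213) and 2549 bp in Huh7 (chr12:24714691-24717239), and the internal starts carried 1764 bp in HepG2 and 200 and 147 bp in Huh7. MCRS1 was found at the internal starts in HepG2, and YY1, over 190 bp, at the distal start in Huh7. SOX13 had INO80 over 2143 bp in HepG2, together with MCRS1, RUVBL2 and YY1. In Huh7 its INO80 peak of 1259 bp began 940 bp downstream of the start, and its YY1 peak of 452 bp did not overlap it. SOX6 had no peak near any of its 7 starts.

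Group E holds regulators of cartilage, testis, glia and neural crest. SOX9, which also marks bile duct cells, had the widest INO80 peak of the 38 genes, 6782 bp in HepG2 (chr17:70115962-70122743), longer than the gene itself at 5397 bp. The widest peaks of the other factors within 1 kb of the start measured 6232 bp for MCRS1, 3611 bp for YY1, 3348 bp for RUVBL2 and 748 bp for RUVBL1. Farther downstream the INO80 peak also held RUVBL1 peaks of 1863 and 369 bp, and further RUVBL2 and YY1 peaks. In Huh7 the INO80 peaks near the start were 599 and 205 bp wide, while YY1 covered 3150 bp (chr17:70117191-70120340). A further Huh7 INO80 peak of 1239 bp, the widest there, lay beyond the 1 kb limit at 1534 bp, with MCRS1 and RUVBL2 of Huh7 at 1534 and 1876 bp. SOX8 had INO80 over 4951 bp in HepG2 (chr16:1029542-1034492), with MCRS1 over 147 bp at 983 bp from the start and no other factor. In Huh7 INO80 covered 1598 bp of SOX8 (chr16:1032438-1034035), alone. SOX10, the neural crest and glial factor of the group, had no peak within 1 kb of a start in any list, and its nearest YY1 peak in HepG2 lay 1828 bp away.

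Group F genes act in blood vessels, and SOX17 also in endoderm. SOX18 had INO80 over 2485 bp in HepG2 with MCRS1 over 2849 bp, YY1 over 2042 bp and RUVBL2 over 885 bp. In Huh7 it had INO80 peaks of 681 and 237 bp and no other factor. A start of a neighbouring gene, TCEA2, lay within 1 kb of each of these SOX18 peaks. The MCRS1 and RUVBL2 peaks in HepG2 lay wholly upstream of the SOX18 start, so they cannot be assigned to SOX18 alone. SOX7 had INO80 over 1768 bp in HepG2 and no peak within 1 kb in Huh7. SOX17 had no peak within 1 kb, its nearest INO80 peak in HepG2 being 3668 bp away. SOX15 and SOX30, a male germ cell factor, had no peak in any list.

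**Figure D4:**
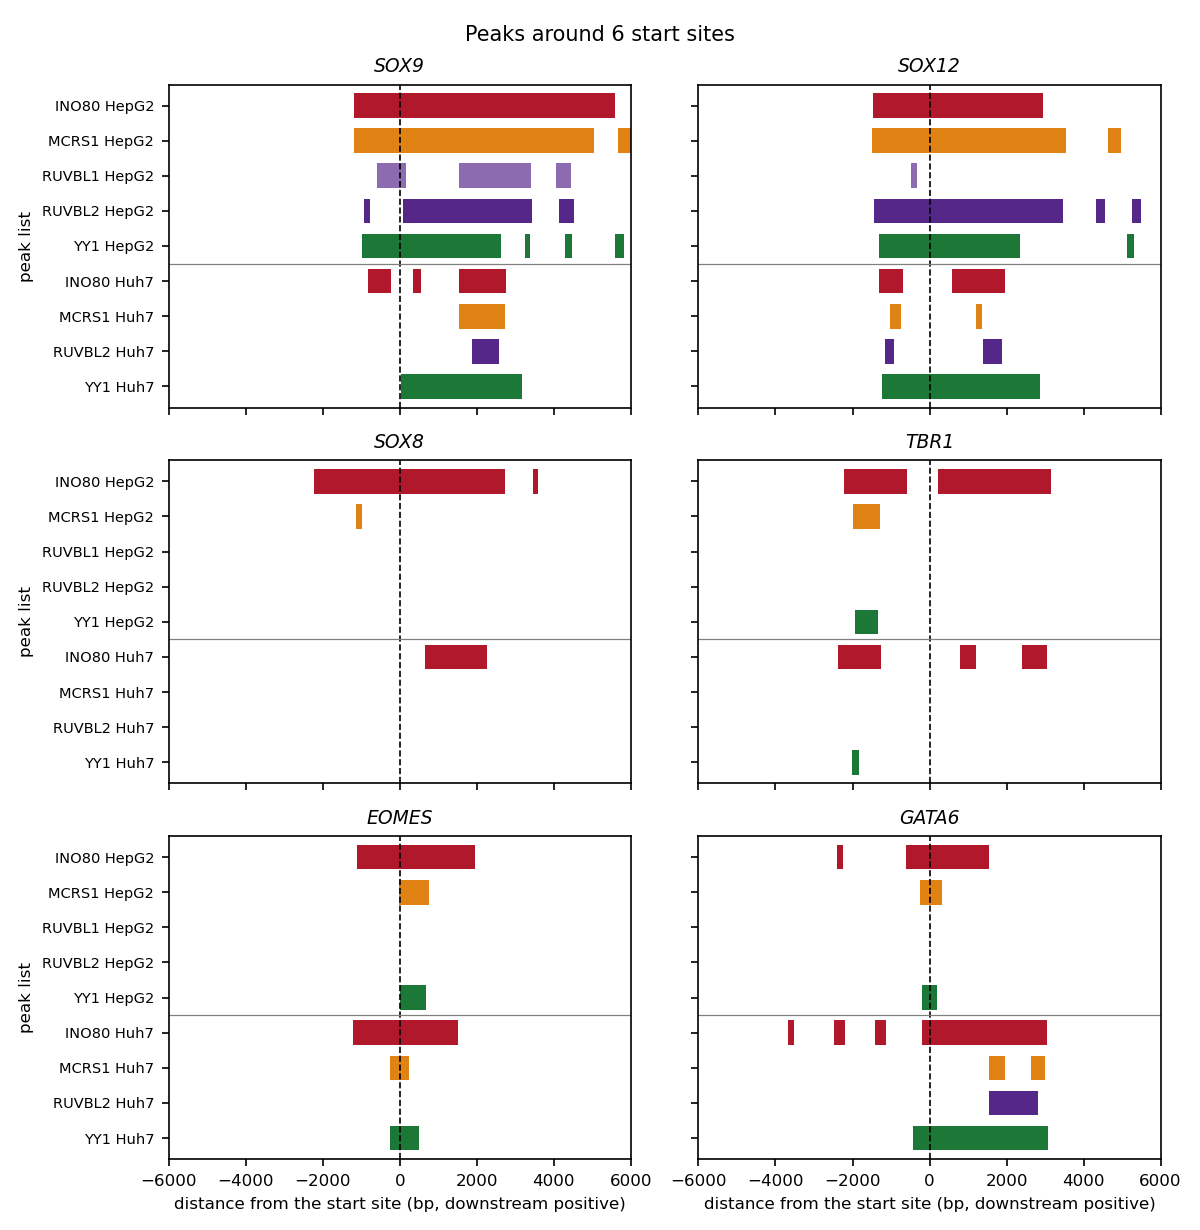
Peaks of the 9 lists (rows, HepG2 above the grey line and Huh7 below it) around the annotated main start of 6 genes, with distance from the start in bp on the x axis and downstream positive. SOX9 in HepG2 is covered by 6782 bp of INO80, in Huh7 by separate INO80 peaks of 599, 205 and 1239 bp beside 3150 bp of YY1, whereas SOX8 has INO80 with at most a single short MCRS1 peak.

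T-box genes of the Tbr1 group direct neurons of the cortex and lymphocytes, and all 3 carried INO80 in both lines. EOMES, needed for mesendoderm and cytotoxic lymphocytes, had INO80 over 3067 bp in HepG2 (chr3:27761860-27764926) and 2744 bp in Huh7 (chr3:27762290-27765033). MCRS1 and YY1 lay inside those peaks, over 793 and 661 bp in HepG2 and 491 and 762 bp in Huh7. TBR1, a factor of deep-layer cortical neurons, had INO80 peaks of 2919 and 1635 bp in HepG2 and of 646 and 431 bp in Huh7. No other factor lay within 1 kb of its starts, although the INO80 peak of 1635 bp overlapped an MCRS1 and a YY1 peak 1290 and 1338 bp from the start. TBX21, the T-bet factor of type 1 helper T cells, had INO80 over 2788 bp in HepG2, with MCRS1 over 476 bp, RUVBL2 over 290 bp and YY1 over 157 bp. In Huh7 TBX21 had INO80 over 1523 bp and no other factor.

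TBX2, a repressor active in heart and limb buds, had INO80 over 3337 bp in HepG2 (chr17:59475405-59478741) and 3123 bp in Huh7 (chr17:59474184-59477306). A further Huh7 INO80 peak there measured 1369 bp (chr17:59477821-59479189). Within 5 kb of the start INO80 covered 3337 bp in HepG2 and 4492 bp in Huh7. MCRS1, RUVBL2 and YY1 accompanied it in HepG2 and YY1 in Huh7. Its relative TBX5, the heart and forelimb factor, had no peak in any list. TBX1, a pharyngeal arch factor, had INO80 peaks of 2089, 1526 and 772 bp in HepG2 spread over both of its starts. In Huh7 a peak of 241 bp near the upstream start was the single INO80 peak of TBX1 within 1 kb of a start. TBX18, known from the sinus node and the epicardium, had INO80 over 1509 bp in HepG2 and 163 bp in Huh7. TBX15, TBX19, TBX20 and TBXT, the mesoderm and notochord factor, had no peak in any list.

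TBX6 and MGA carried several factors in narrower peaks. TBX6, needed for paraxial mesoderm, had 5 factors in HepG2, with INO80 over 1228 bp, YY1 over 1125 bp, MCRS1 over 1001 bp, RUVBL2 over 871 bp and RUVBL1 over 562 bp. In Huh7 INO80 over 252 bp and YY1 over 620 bp were left at TBX6. MGA, which joins a T-box with a helix-loop-helix domain and pairs with MAX in the PRC1.6 repressor, had INO80 over 754 bp in HepG2 and 803 bp in Huh7. All factors mapped in Huh7 were present there, with RUVBL2 over 510 bp, YY1 over 460 bp and MCRS1 over 448 bp.

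GATA6, a driver of endoderm and early liver, had the lowest ratio of HepG2 to Huh7 width among the genes bound in both, as its INO80 peak measured 2149 bp in HepG2 (chr18:19748932-19751080) and 3259 bp in Huh7 (chr18:19749349-19752607). YY1 followed the same order at 398 bp in HepG2 and 3506 bp in Huh7. RUVBL2 over 1280 bp was found in Huh7 alone, at the second coding start. GATA4, its close relative, showed the reverse, with INO80 over 2673 bp in HepG2 and 1339 bp in Huh7 and YY1 over 1720 bp in HepG2 and 187 bp in Huh7. GATA2, a blood stem cell factor, had INO80 over 4459 bp in HepG2 (chr3:128205468-128209926), with MCRS1 over 3804 bp, and over 2233 bp in Huh7 (chr3:128207461-128209693). In Huh7 the starts of GATA2 further upstream were free of INO80. GATA3, a T cell and mammary factor, was bound by INO80 in Huh7 alone, over 746 bp with MCRS1 over 204 bp, and its nearest HepG2 peak lay 2856 bp away. Both Huh7 peaks lay upstream of the GATA3 starts and within 1 kb of a start of GATA3-AS1, so they cannot be assigned to GATA3 alone. GATA5 had INO80 over 1455 bp in HepG2 (chr20:61050462-61051916) and 887 bp in Huh7 (chr20:61050535-61051421), with no other factor.

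Most bound members carried INO80 in both lines. Of the 38, 20 were bound in both, 52.6% against 45.3% of coding genes. SOX2, SOX7 and SOX14 were bound in HepG2 only, 7.89% against 18.4%, and GATA3 in Huh7 only, 2.63% against 2.4%. The remaining 14 were bound in neither, 36.8% against 33.9%. Of the members bound in HepG2, 87% were also bound in Huh7, against 71.1% of all genes bound in HepG2. The reverse share was 95.2% against 95%. At the 20 shared genes the widest INO80 peak was wider in HepG2 at 17, or 85% against 81.8% of all shared genes, with a median ratio of HepG2 to Huh7 of 1.915 against 1.78. The 3 exceptions were SOX5, MGA and GATA6. The ratio was 11.3 at SOX9, 9.26 at TBX18 and 8.67 at TBX1, and 1.07 at TBX2 and 1.12 at EOMES. Only the widest peak of each line enters the ratio, and genes such as TBX2 and GATA4 had a further INO80 peak in Huh7. The value for SOX9 was 5.47, below those of TBX18 and TBX1, when its Huh7 peak of 1239 bp beyond 1 kb was counted, a comparison added after the data were seen.

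**Figure D5:**
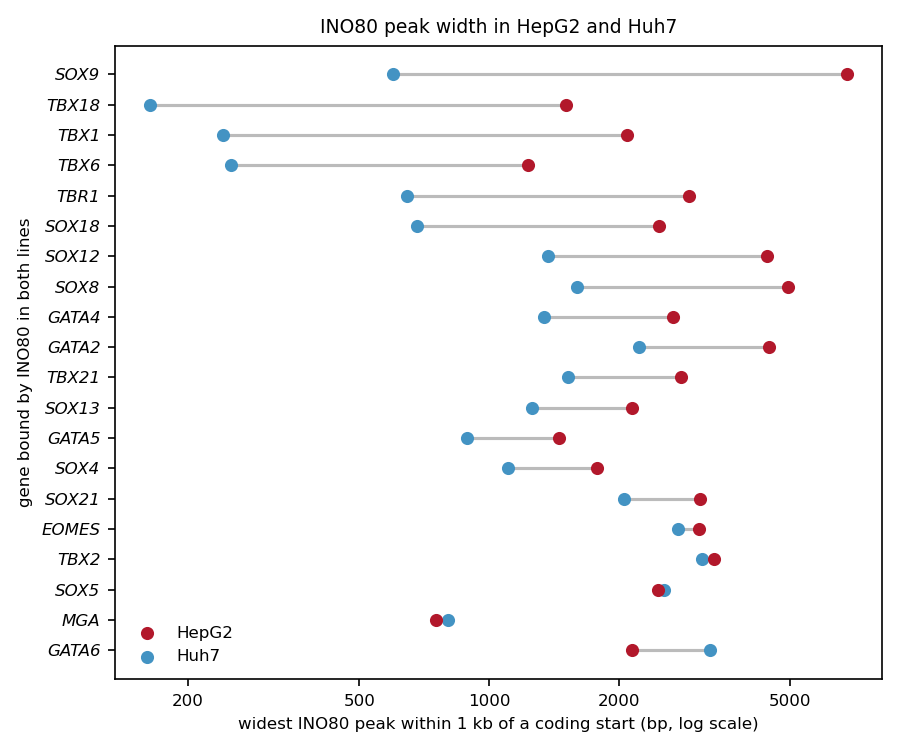
Widest INO80 peak (bp, logarithmic axis) in HepG2 (red) and Huh7 (blue) at the 20 genes bound in both lines, ordered by the ratio of HepG2 to Huh7. The HepG2 point lies to the right at 17 genes, with 6782 and 599 bp at SOX9, where a Huh7 peak of 1239 bp beyond 1 kb is not drawn, and to the left at SOX5, MGA and GATA6.

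No peak of any factor was found at 12 of the 38 genes, or 31.6% against 27.8% of coding genes: SOX1, SOX6, SOX10, SOX11, SOX15, SOX17, SOX30, TBX5, TBX15, TBX19, TBX20 and TBXT. Of the members without INO80 at a start, 9 of 15 in HepG2 had it elsewhere in the gene or within 10 kb, or 60% against 27.8% of such coding genes, and 4 of 17 in Huh7, or 23.5% against 24.2%. A peak in all 9 lists was found at SOX12, 2.63% against 5.26%. CpG content was compared as the ratio of observed to expected CG in 1001 bp about the main start. Its median was 0.809 at the 20 members bound in both lines and 0.803 at all coding genes bound in both. At the 14 members without INO80 it was 0.68, against 0.298 at all coding genes without INO80. Of those 14, 8 exceeded a ratio of 0.6, or 57.1% against 22.7%, among them SOX1, SOX11, TBX20 and TBXT. Restricted to genes above that ratio, INO80 lay at 20 of 29 members in HepG2, or 69% against 85.8%, and at 18 in Huh7, or 62.1% against 65.5%. That restriction was chosen after the data were seen. YY1 lay at 13 of the 29 in HepG2, or 44.8% against 82%, and at 10 in Huh7, or 34.5% against 70.1%.

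The families' own motifs were uncommon in the 250 bp upstream of the main starts. The GATA factor motif searched was AGATAA, which reads TTATCT on the reverse strand, and it occurred at 2 of the 38 genes, 5.26% against 6.58% of coding genes. The half-site of the T-box family, GGTGTGA or in reverse TCACACC, occurred at SOX2 and SOX14, 5.26% against 2.57%. The SOX motif ACAATG, which reads CATTGT in reverse, occurred at SOX6, TBX1 and TBXT, 7.89% against 6.2%. Its close variant ACAAAG, which reads CTTTGT in reverse, occurred at SOX2, SOX6 and SOX30, 7.89% against 10.5%. Each count is of 2 or 3 genes, and no difference in these shares can be read from so few.

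Genes that work with these factors were counted in the same way, beside the shares of all coding genes given above, 63.7% in HepG2 and 47.7% in Huh7 for INO80 and 62.6% and 51.5% for YY1. Of 18 partner and cofactor genes of GATA and T-box factors, 14 had INO80 in HepG2, or 77.8%, and 9 in Huh7, or 50%, while 6 had YY1 in HepG2, or 33.3%, and 5 in Huh7, or 27.8%. ISL1, a heart and motor neuron factor, had INO80 over 1093 bp in HepG2 and 871 bp in Huh7, without YY1. LMO2, which bridges GATA factors in blood cells, had INO80 over 1973 bp in HepG2 and 542 bp in Huh7, also without YY1. LDB1, which binds LMO2, had INO80 over 724 bp in HepG2 and 395 bp in Huh7 with YY1 in both lines. RUNX1, a blood stem cell factor, had INO80 over 2698 bp in HepG2 and 444 bp in Huh7 with YY1 in both lines. SMARCD3, a remodeller subunit of the heart, had INO80 over 1737 bp in HepG2 and 1414 bp in Huh7 and YY1 in both lines, and MIXL1, a mesendoderm factor, had 1287 bp in HepG2 and 1126 bp in Huh7 with YY1 in HepG2 alone. FOXH1, HAND2 and TAL1 had INO80 in neither line.

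Of 15 SOX partner and Wnt pathway genes, 10 had INO80 in HepG2, or 66.7%, and 7 in Huh7, or 46.7%, while 7 had YY1 in HepG2, or 46.7%, and 4 in Huh7, or 26.7%. COL2A1, a collagen gene and target of SOX9, had INO80 over 3716 bp in HepG2 and 2879 bp in Huh7, and CTNNB1, which encodes beta-catenin, 1846 bp in HepG2 and 1731 bp in Huh7, both with YY1 in both lines. LEF1, a Wnt effector, had 2998 bp in HepG2 and 887 bp in Huh7, and POU3F1, a neural POU factor, 1434 bp in HepG2 and 1131 bp in Huh7, both without YY1. PAX6, an eye and brain factor, had 3689 bp in HepG2 and 3473 bp in Huh7 with YY1 in Huh7 alone, and POU3F2 had 2347 bp in HepG2 and 1510 bp in Huh7 with YY1 in HepG2 alone. NANOG, OLIG2, POU5F1 and SOX3 had INO80 in neither line.

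Of 13 genes for partners of MGA in PRC1.6, 13 had INO80 in HepG2, or 100%, and 9 in Huh7, or 69.2%, while 13 had YY1 in HepG2, or 100%, and 11 in Huh7, or 84.6%. CBX3, which encodes the heterochromatin protein HP1 gamma, had INO80 over 5975 bp in HepG2 and 2407 bp in Huh7. E2F6, a repressor of the E2F family, had 1322 bp in HepG2 and 848 bp in Huh7, and the histone deacetylase genes HDAC1 and HDAC2 had 1178 and 1386 bp in HepG2 and 797 and 707 bp in Huh7. L3MBTL2 had 319 bp in HepG2 and 157 bp in Huh7 and PCGF6 had 762 bp in HepG2 and 329 bp in Huh7, both encoding subunits of the complex. All 6 of these genes had YY1 in both lines.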

How the data were processed

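ChIP-seq libraries of HepG2 and Huh7 cells were processed by the authors with Bowtie2, SAMtools, MACS2, bedtools and deepTools on hg19 and dm3, per the submitters' processing notes, which name no versions. The authors deposited 1 filtered peak list per factor and line, 9 in all, with positions and no score. The sources used here do not say whether libraries were pooled for peak calling. Nothing in the labels says that libraries came from separate cultures.

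Starts of basic-set protein-coding transcripts came from GENCODE release 44 lifted to GRCh37, the sequence of hg19, without the mitochondrial genes. Peaks were joined to starts within 1 kb with Python 3.11.15, pandas 2.3.3 and NumPy 2.4.6, and the join was checked on simulated peaks. Sequences were read from the GRCh37 genome, and coordinates are 1-based. The 38 genes, the related gene lists and the markers were chosen with earlier results of these data known. All 38 could be named. Related genes were named in alphabetical order, at most 6 bound by INO80 in both lines and 6 in neither, leaving out 1 that is not reported here. Printed sequences were chosen for their peaks and motifs. Group labels came from sample titles. Deposited tables other than the peak lists were not used here. Some upstream sequences are likewise left out.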

Additional observations from a re-analysis of the deposited data

How the results depend on the processing

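The counts and medians were recomputed under 8 planned settings and 3 chosen after the data were seen. The share of INO80-bound members without YY1 exceeded that of all INO80-bound genes in 11 of 11 settings in each line, counting the one reported, but with the 3322 widest peaks of each list the shares were 70.6% against 45.6% in HepG2 and 75% against 47.5% in Huh7, a smaller ratio than the 39.1% against 11% and 42.9% against 15.3% reported, and the members' median INO80 width exceeded that of all bound genes in 10 of 10. The share with YY1 lay below all genes in 10 of 10 settings in each line, with RUVBL1, RUVBL2 and MCRS1 in Huh7 likewise, but MCRS1 in HepG2 lay above in 1 of 10, at 18.4% against 15.3% with the 3322 widest peaks, whereas the share with INO80 lay above all genes in 4 of 10 settings in HepG2 and 8 of 10 in Huh7. Requiring a peak's centre within 1 kb set the median Huh7 INO80 width to 774.5 bp, against 606 bp at all bound genes. Counting the widest Huh7 INO80 peak under each HepG2 peak changed the width ratio of 1 gene, SOX9, to 5.47. Keeping the 3322 widest peaks of each list left INO80 at 17 members in HepG2, 44.7% against 15.6% of all coding genes. In Huh7 it left INO80 at 12 members, 31.6% against 15.3%. Leaving out chromosomes 2, 14, 16, 17 and 20, some of which HepG2 carries in extra copies, left 26 members, of which 14 had INO80 in HepG2 and 12 in Huh7, with 4 lacking YY1 in Huh7. With those chromosomes left out, INO80 lay at 53.8% of members against 61% of all coding genes in HepG2, and 46.2% against 46.6% in Huh7. Of members with INO80 in Huh7, 33.3% then lacked YY1, against 15.5% of all INO80-bound genes. The counts under this setting are out of 26 members rather than 38, so they cannot be set directly beside the reported counts. The changes in the shares were not tested. Counting YY1 only under the INO80 peak gave 8 of 23 members without YY1 in HepG2, or 34.8% against 12% of all INO80-bound genes. In Huh7 it gave 10 of 21, or 47.6% against 20.6%. Of the INO80 counts and widths recomputed, 60 stayed within 1.5 times of the reported value and 5, given above, did not. For the other factors 51 counts stayed within it and 12 did not. Counts were compared as they stand, also where a setting held fewer than 38 members. No paired analysis was possible because each factor has 1 list per line, and for the same reason no library could be left out. Width and number of peaks may both follow depth, which the lists do not give.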
